A study of Mus musculus with 4 samples.

Results

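Major histocompatibility complex (MHC) class I molecules show fragments of a cell's own proteins to CD8+ T cells. Of the 54532 genes in the deposited tables, 10 genes of this pathway were followed in spleen neutrophil-like suppressor cells of newborn mice that had or had not met an adenosine analogue. They were chosen by name: the class I heavy chains H2-K1 and H2-D1, their light chain B2m, the peptide transporter subunits Tap1 and Tap2, the loading factor Tapbp, the immunoproteasome subunits Psmb8, Psmb9 and Psmb10, and the class I transactivator Nlrc5. All 10 were found under those symbols and all 10 passed the filter on low counts.

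The series holds 4 RNA libraries of PMN-MDSC (polymorphonuclear myeloid-derived suppressor cells, neutrophil-like cells that restrain T cells), purified from spleens of newborn C57BL/6 mice. One group had 5 days of NECA, an adenosine analogue that cells break down slowly and that acts on adenosine receptors; the control group had the solvent DMSO. Each group had 2 libraries, and nothing in the labels says whether they came from separate animals or separate cultures, so p-values measure only the spread between these libraries, which may be technical. The sources used here give no NECA dose. Totals ran from 15864120 to 18712625 counts per library, and the 10 genes together held between 0.209% and 0.238% of them. The neutrophil label was met by the marker genes: the 12 fixed neutrophil markers, led by the granule genes Ngp and Ltf, summed to between 123120 and 137897 CPM (counts scaled to library size) in the 4 libraries; 2 of the 12 (the proteases Mmp8 and Mmp9) were called higher with NECA by edgeR and 0 lower. That count ran from 0 (without DMSO replicate 1, with library size alone or with limma) to 9 (without the filter on low counts), and the median log2 fold change of the 12 was 0.17.

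Class I heavy chains fold in the endoplasmic reticulum around the light chain beta-2 microglobulin and stay there until they bind a peptide. Peptides are cut in the cytosol by the proteasome, carried across the membrane by the TAP transporter and loaded with the help of tapasin, the product of Tapbp. Under interferon, cells exchange the constitutive catalytic subunits of the proteasome (the products of Psmb5, Psmb6 and Psmb7) for the inducible ones (those of Psmb8, Psmb9 and Psmb10). NLRC5, an NLR protein, drives many genes of the pathway by joining a complex of RFX, CREB/ATF and NF-Y factors on their promoters, where interferon regulatory factors (IRF) and NF-kB also have sites.

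The upstream sequences of H2-K1, H2-D1 and B2m are shown because these 3 genes encode the chains of the classical class I molecule itself. They also share the spacing between a TGACG and an ATTGG motif. Each is the 250 bases before the RefSeq transcription start on GRCm38.p6, 5′ to 3′ on the strand of the gene, at chr17:34000348-34000597 (minus strand) for H2-K1, chr17:35262844-35263093 (plus strand) for H2-D1 and chr2:122147437-122147686 (plus strand) for B2m. For H2-K1 the first of the listed starts was used. Capitals mark letters that match AANNGAAA (an IRF element), GGG and CC with any 5 bases between them (an NF-kB element), TGACG (a CREB/ATF site) or CCAAT (the NF-Y box, ATTGG on the other strand), on either strand, with overlapping matches merged.
H2-K1: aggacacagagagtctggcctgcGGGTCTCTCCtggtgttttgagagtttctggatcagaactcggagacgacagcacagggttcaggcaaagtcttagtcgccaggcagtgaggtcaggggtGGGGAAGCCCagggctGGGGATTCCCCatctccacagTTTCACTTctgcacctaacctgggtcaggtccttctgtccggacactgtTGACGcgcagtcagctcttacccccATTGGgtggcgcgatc
H2-D1: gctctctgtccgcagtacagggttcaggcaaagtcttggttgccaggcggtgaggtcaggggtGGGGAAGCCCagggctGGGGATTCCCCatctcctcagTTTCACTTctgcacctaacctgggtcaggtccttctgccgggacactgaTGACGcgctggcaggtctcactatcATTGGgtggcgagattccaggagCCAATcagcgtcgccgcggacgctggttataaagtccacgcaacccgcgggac
B2m: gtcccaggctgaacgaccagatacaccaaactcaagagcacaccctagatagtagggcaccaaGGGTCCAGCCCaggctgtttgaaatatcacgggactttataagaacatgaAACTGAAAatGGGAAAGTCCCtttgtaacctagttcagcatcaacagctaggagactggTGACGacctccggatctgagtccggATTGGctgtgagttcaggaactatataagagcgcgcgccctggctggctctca

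In all 3 sequences TGACG was followed by ATTGG with their first bases 25 apart, 20 bases lying between them. TGACG began 41 bases before the start in H2-K1, 101 in H2-D1 and 78 in B2m, and the IRF match began 90, 150 and 137 bases before it. The IRF match was on the strand of the gene in B2m and on the other strand in H2-K1 and H2-D1. NF-kB matches lay only upstream of the IRF match in H2-K1 and H2-D1, and on both sides of it in B2m. The pair at that spacing, on either strand, was in 30 of 32851 upstream windows of this length (0.0913%), which belonged to 26 genes. A RefSeq window was found for 8 of the 10 genes (not Tap2 and Nlrc5), and of those 8 only these 3 held the pair. Of the 14 other class I molecules with a window, 1 held it, H2-M3, which presents formylated peptides (log2 fold change -1.05 with NECA, adjusted p = 0.203 by edgeR), and of 7 class II genes 0 did. Taken singly the motifs were common: AANNGAAA was in 21.3% of all windows, the NF-kB letters in 45.8%, TGACG in 17.8% and CCAAT in 33.8%, and 0.469% of windows held all 4 kinds. The motifs and the spacing were chosen with these sequences in view, so the shares describe the windows and test nothing. H2-K1 and H2-D1 were 89.5% identical over 190 aligned bases of this stretch, against 63.5% over 211 bases between H2-K1 and B2m. Positions with a gap were left out of both shares, and the identity of unrelated windows was not taken for comparison.

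Tap1 and Psmb9 are read in opposite directions from a common stretch, which is shown here. It spans the 225 bases between the 2 RefSeq starts, chr17:34187331-34187555 on GRCm38.p6, and is written on the plus strand, with Tap1 starting after its right end and Psmb9 before its left end. Capitals mark the same motifs. It held matches to the NF-kB, CREB/ATF and NF-Y letters and none to the IRF letters.
Psmb9-Tap1: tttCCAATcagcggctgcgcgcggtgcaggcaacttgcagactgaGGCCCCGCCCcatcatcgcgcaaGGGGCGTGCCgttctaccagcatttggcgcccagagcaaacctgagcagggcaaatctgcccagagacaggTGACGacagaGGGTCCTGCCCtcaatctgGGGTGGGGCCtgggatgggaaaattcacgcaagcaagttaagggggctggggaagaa

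Of the 10 genes, 7 lie in the MHC on chromosome 17 (GENCODE M21, GRCm38). Psmb9, Tap1, Psmb8 and Tap2 follow each other within 34335 bases, from 34181987 to 34216321. H2-K1 lies at 33996017 to 34000347, Tapbp at 33915899 to 33929292 and H2-D1 at 35262730 to 35267499. B2m lies on chromosome 2 (122147686 to 122153083), and Psmb10 (105935735 to 105938444) and Nlrc5 (94434356 to 94527272) lie on chromosome 8. No source used here says whether the counting used strand, so reads in exons that overlap a neighbour are uncertain: 29.0% of the annotated exon bases of Tapbp, 18.5% of those of Tap2, 14.7% of Psmb8, 5.79% of Psmb9 and 3.87% of Tap1 overlapped another gene. Psmb9 and Tap1 overlapped each other, by 212 exon bases, so their counts are not fully separate if strand was not used. Copies matter for the heavy chains: 9.63% of the 50-base words in H2-K1 transcripts and 12.8% of those in H2-D1 transcripts also occurred in transcripts of other genes.

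Compared per gene length, in the length- and depth-scaled fragment values (FPKM) of the deposited tables, the light chain was the most abundant of the 10 and the transactivator the least. With DMSO, B2m had 652 ± 4.92 FPKM (SD, n = 2, as throughout) and H2-D1 414 ± 11.9 FPKM. In counts H2-D1 exceeded B2m in every library (20901 against 10825 in DMSO replicate 1), so the order of these genes comes from the gene lengths behind the FPKM. H2-K1 followed at 77.8 ± 14.1 FPKM. Tapbp had 38.8 ± 0.688 and Tap2 26.9 ± 0.729 FPKM. Psmb9, Psmb8 and Tap1 stood at 15.2 ± 0.633, 15.2 ± 0.402 and 14.6 ± 0.570 FPKM, neighbours that did not differ beyond their spread. Psmb10 had 9.17 ± 2.04 FPKM and Nlrc5 0.459 ± 0.209 FPKM. H2-D1 RNA thus exceeded H2-K1 RNA in every library, and H2-K1 was 0.187 ± 0.0286 of H2-D1 with DMSO and 0.145 ± 0.0259 with NECA.

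NECA was set against DMSO to see what an adenosine signal changes in these cells. None of the 10 genes passed edgeR's quasi-likelihood test (0 of 10 at adjusted p under 0.05, Benjamini-Hochberg over 13083 genes), where 1.33% of all genes tested passed, 0.352% higher and 0.978% lower with NECA. At an unadjusted p under 0.05 edgeR had 4 of the 10, all with lower values under NECA (Nlrc5, Psmb10, H2-K1 and Tap1), where 8.88% of all genes had such a lower value. DESeq2 called 0 of the 10 and had 3 at an unadjusted p under 0.05, and limma on log2(FPKM + 1) called 0 and had 1. The count of 4 rested on single libraries: it was 0 without NECA replicate 2, 1 without DMSO replicate 1, 3 when DMSO replicate 2 was left out and 5 without NECA replicate 1. The median log2 fold change was -0.05 over the 10 genes and -0.01 over all genes tested. The median of the 10 turned to 0.03 without NECA replicate 2 and was -0.22 without NECA replicate 1 and -0.12 with library size alone. The 10 genes summed to 2315 and 2215 CPM (DMSO libraries) against 2320 and 2139 CPM (NECA libraries). Most of that sum was H2-D1 and B2m (means of 1085 and 563 CPM over all libraries), so the less abundant genes hardly move it.

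**Figure D1:**
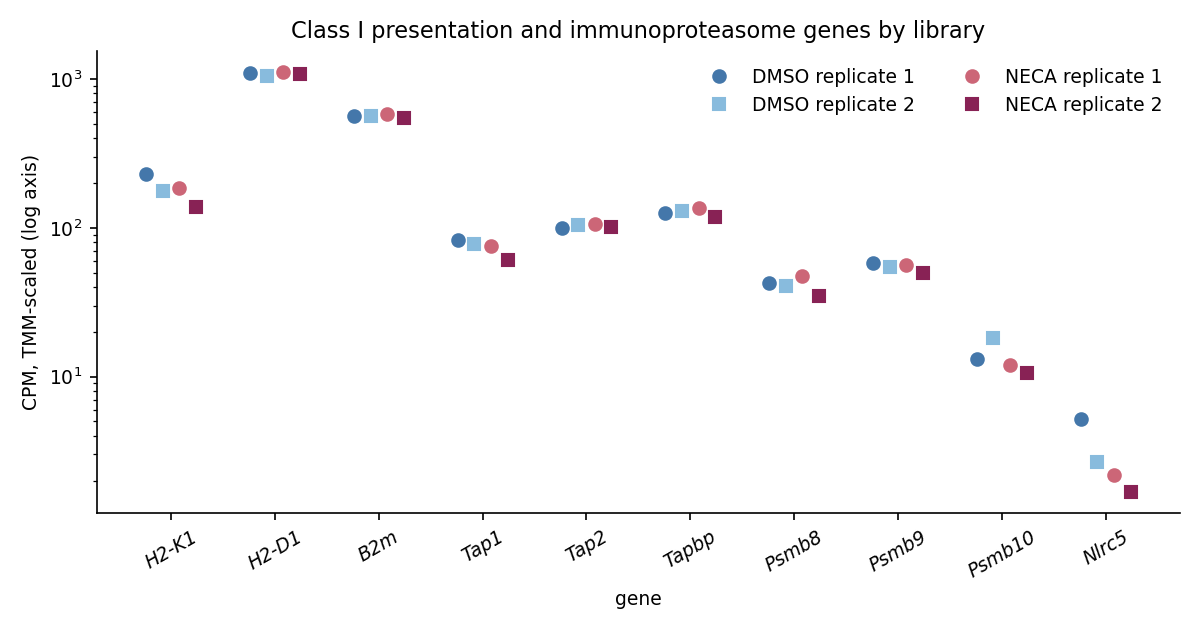
Level of the 10 class I pathway genes in each library, as CPM on TMM-scaled library sizes (log axis), with circles for replicate 1 and squares for replicate 2. For H2-D1, B2m and Tap2 the 4 points lie together, and for Nlrc5 they spread from 1.68 CPM in NECA replicate 2 to 5.17 CPM in DMSO replicate 1.

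H2-D1, the more abundant classical heavy chain here, varied little between libraries. DMSO replicates 1 and 2 stood at 1092 and 1049 CPM, NECA replicates 1 and 2 at 1118 and 1079.9 CPM, and the groups overlapped. Its log2 fold change was 0.04 (SE 0.05, 95% interval -0.06 to 0.14, adjusted p = 0.766). B2m, which every class I heavy chain needs, had 566 and 560.0 CPM (DMSO libraries) against 582 and 545 CPM (NECA libraries). Both NECA libraries bracketed the DMSO libraries, and the log2 fold change was 0.00 (95% interval -0.11 to 0.11, adjusted p = 0.992). With library size alone as the scale, which moved the median gene from -0.01 to -0.08, both values fell below 0 (-0.03 for H2-D1 and -0.07 for B2m).

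H2-K1, the other classical heavy chain of this strain, had 229 and 177 CPM (DMSO libraries) against 185 and 138 CPM (NECA libraries). The highest library was a DMSO library and the lowest a NECA library, but NECA replicate 1 lay above DMSO replicate 2, so the groups overlapped. Its log2 fold change was -0.33 (SE 0.13, 95% interval -0.61 to -0.05, adjusted p = 0.229 by edgeR). The call depended on the setting: H2-K1 was called by edgeR in 3 of 10 alternatives. Among them were the fit without NECA replicate 1 (-0.56) and that without the filter on low counts (-0.33, adjusted p = 5.25e-05). The former rests on a lone NECA library, whose spread is assumed and not measured. The other 7, in edgeR, DESeq2 or limma, gave no call, with adjusted p of 0.141 to 0.821. Without DMSO replicate 1 its value was -0.13, without NECA replicate 2 -0.14 and without DMSO replicate 2 -0.50. Within a library the ratio of H2-K1 to H2-D1 FPKM was 0.208 and 0.167 with DMSO and 0.163 and 0.127 with NECA, so the ratio was lower in both NECA libraries than in both DMSO libraries, and DMSO replicate 2 and NECA replicate 1 were close. Such a ratio needs no scaling between libraries, and no test was run on it because 2 against 2 libraries cannot reach p under 0.05 in an exact permutation test.

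Tap1 and Tap2 encode the subunits that pair to form the transporter. Tap1 had 82.6 and 78.2 CPM (DMSO libraries) against 75.0 and 60.4 CPM (NECA libraries). Both NECA libraries were below both DMSO libraries, by little for NECA replicate 1. Its log2 fold change was -0.25 (SE 0.10, 95% interval -0.46 to -0.04, adjusted p = 0.235 by edgeR). Tap1 was called without NECA replicate 1 (-0.41, on a lone NECA library) and had a value of -0.10 when NECA replicate 2 was left out. Tap2 had 99.9 and 104 CPM (DMSO libraries) against 107 and 101 CPM (NECA libraries), overlapping groups with a log2 fold change of 0.03 (95% interval -0.12 to 0.17, adjusted p = 0.911). The ratio of Tap1 to Tap2 FPKM was 0.571 and 0.520 with DMSO and 0.485 and 0.414 with NECA. Tapbp, the bridge between transporter and heavy chain, had 127 and 130 CPM (DMSO libraries) against 135 and 118 CPM (NECA libraries), and the NECA libraries lay on either side of the DMSO libraries. Its log2 fold change was -0.02 (95% interval -0.18 to 0.14, adjusted p = 0.932) and 0.07 without NECA replicate 2. Of the 10 genes, 3 (Tap1, Psmb10 and Nlrc5) had both NECA libraries below both DMSO libraries and 0 had both above. Over all genes tested 24.3% had both below and 22.4% both above.

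Psmb9, the inducible counterpart of Psmb6, had 57.6 and 54.3 CPM (DMSO libraries) against 56.6 and 49.6 CPM (NECA libraries). Psmb9 in NECA replicate 1 lay between the DMSO libraries, and the log2 fold change was -0.07 (95% interval -0.27 to 0.12, adjusted p = 0.758 by edgeR). That interval overlapped the interval of Tap1 (-0.46 to -0.04), which shares the promoter stretch. The difference between Psmb9 and Tap1 was not tested. Psmb8, the inducible chymotrypsin-like subunit that replaces Psmb5, had 42.4 and 40.8 CPM (DMSO libraries) against 47.5 and 34.6 CPM (NECA libraries). Its highest and its lowest library were both NECA libraries, and the sign of its log2 fold change (-0.02, 95% interval -0.29 to 0.26, adjusted p = 0.975) followed the library left out, at 0.19 when NECA replicate 2 was left out and -0.27 without NECA replicate 1. Psmb10, which replaces Psmb7, had 13.2 and 18.2 CPM (DMSO libraries) against 11.9 and 10.6 CPM (NECA libraries). The groups did not overlap, with the DMSO libraries farther apart than the nearest libraries of the 2 groups. Its log2 fold change was -0.48 (SE 0.18, 95% interval -0.88 to -0.08, adjusted p = 0.226), -0.23 without DMSO replicate 2 and -0.68 without DMSO replicate 1.

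**Figure D2:**
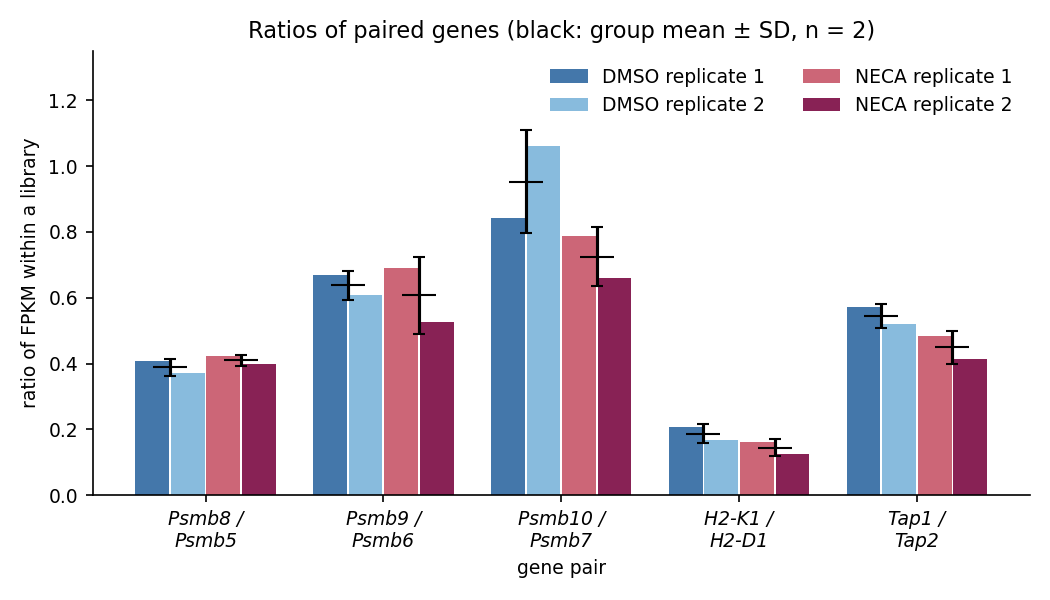
Ratio of FPKM of paired genes in each library (bars, from 0), with the group mean and SD in black (n = 2 each). Psmb10 to Psmb7 ranged from 0.661 to 1.06. This ratio and those of H2-K1 to H2-D1 and Tap1 to Tap2 were lower in both NECA libraries than in both DMSO libraries. The ratios of Psmb8 to Psmb5 and Psmb9 to Psmb6 overlapped between the groups, and no ratio was tested.

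Set against the constitutive subunit it replaces, each inducible subunit was below parity in RNA per length in both group means. In counts, Psmb8 exceeded Psmb5 in every library (811 against 654 in DMSO replicate 1) and Psmb9 exceeded Psmb6 (1102 against 842 there), so for these 2 pairs the direction comes from the gene lengths behind the FPKM. The GENCODE M21 annotation gives 3381 exon bases to Psmb8 and 899 to Psmb5, and 3660 to Psmb9 and 1872 to Psmb6. The lengths behind the deposited FPKM are not given and need not be these. For Psmb8 the deposited counts and FPKM imply a shorter length than the annotated one. Psmb8 was 0.389 ± 0.0258 of Psmb5 with DMSO and 0.410 ± 0.0168 with NECA. Psmb9 was 0.638 ± 0.0441 of Psmb6 with DMSO and 0.608 ± 0.117 with NECA. Psmb10 was 0.952 ± 0.156 of Psmb7 with DMSO and 0.725 ± 0.0905 with NECA; by library these were 0.842 and 1.06 against 0.789 and 0.661. Psmb8, Psmb9 and Psmb10 together made up 35.5% and 35.1% of the FPKM of the 6 catalytic subunits in the DMSO libraries, against 35.5% and 32.6% in NECA replicates 1 and 2, so only NECA replicate 2 stood apart. The constitutive subunits themselves did not pass edgeR's test, with log2 fold changes of -0.10 for Psmb5 (adjusted p = 0.766), 0.01 for Psmb6 (adjusted p = 0.987) and -0.08 for Psmb7 (adjusted p = 0.792). Counts of Psmb5 are uncertain, because 54.1% of its 50-base words also occurred in transcripts of other genes, chiefly the annotated copy Gm3375.

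Nlrc5 had the largest fold change of the 10 and the fewest reads. DMSO replicates 1 and 2 held 99 and 50 counts, NECA replicates 1 and 2 held 40 and 26, or 5.17 and 2.66 against 2.20 and 1.68 CPM. DMSO replicate 1 stood far above the other 3 libraries, and DMSO replicate 2 was close to NECA replicate 1. The log2 fold change was -1.01 (SE 0.38, 95% interval -1.84 to -0.17, adjusted p = 0.221 by edgeR). Leaving out DMSO replicate 1 gave -0.44 and leaving out DMSO replicate 2 gave -1.40, and Nlrc5 was not called under any of 10 alternatives (adjusted p of 0.0642 to 0.700).

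**Figure D3:**
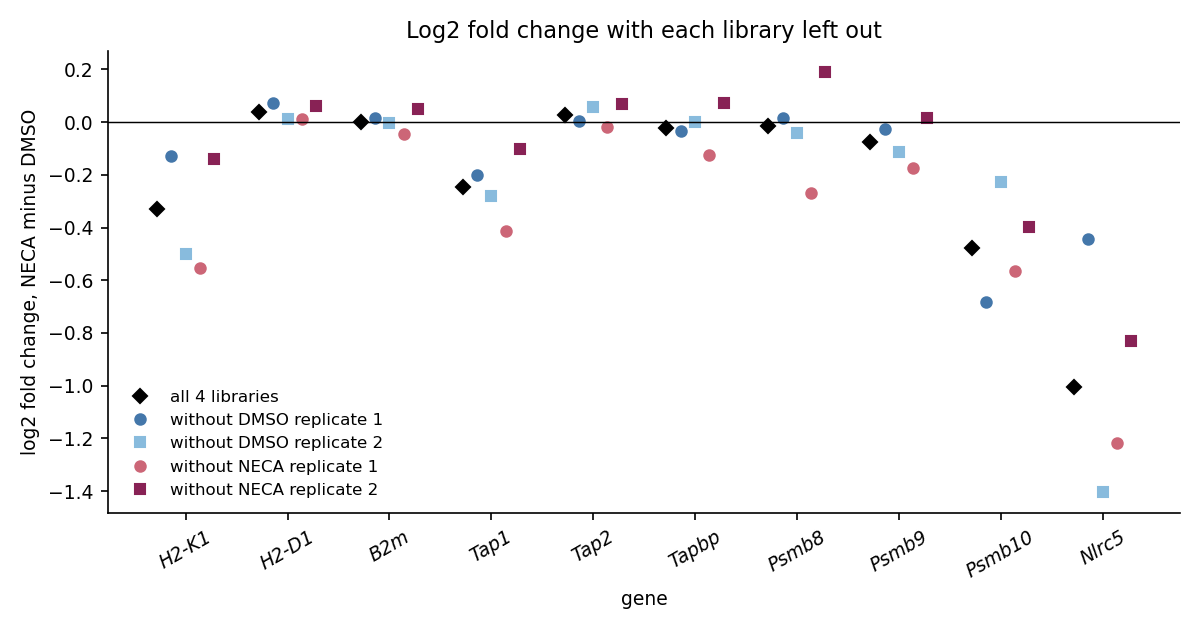
Log2 fold change (NECA minus DMSO) of the 10 genes with all 4 libraries (black diamonds) and with each library left out in turn. H2-K1, Tap1, Psmb10 and Nlrc5 stayed below 0 in all 5 fits, from -0.13 to -0.56 for H2-K1 and from -0.44 to -1.40 for Nlrc5, while Psmb8 ran from -0.27 to 0.19.

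Of the 10 genes, 8 were lowest in NECA replicate 2, against 28.9% of all genes tested, and the exceptions were H2-D1 and Tap2. NECA replicate 2 was also far below the other libraries in the summed B cell and erythroid markers, but not in the macrophage markers, which split by group. The 8 B cell markers, led by Cd79a, summed to 145 and 152 CPM with DMSO and 77.4 and 13.8 CPM in NECA replicates 1 and 2. The 14 macrophage markers, led by Csf1r and Vcam1, summed to 591 and 527 CPM (DMSO libraries) against 294 and 245 CPM (NECA libraries), and 11 of 14 were called lower by edgeR. The 8 erythroid markers, led by Hbb-bs and Hba-a1, summed to 1178 and 484 CPM (DMSO libraries) against 339 and 19.1 CPM (NECA libraries). No marker of these 3 lists was at 0 counts in any library. T and NK cell markers (23.8 and 28.5 CPM in the DMSO libraries, 16.8 and 17.6 CPM in the NECA libraries, led by Cd3d and Tcf7) and dendritic cell markers (17.03 and 14.02 CPM in the DMSO libraries, 15.2 and 10.5 CPM in the NECA libraries, led by Itgax and Clec9a) were low throughout, and Cd3e and Klrb1c were at 0 in both NECA libraries, Ncr1 in all but DMSO replicate 1 and Siglech in NECA replicate 2. B cells, macrophages and dendritic cells also make class I and immunoproteasome RNA, and the part of such cells in the values of H2-K1, Tap1, Psmb10 and Nlrc5 was not tested. In RNA of a whole cell sample, fewer cells of a type and less RNA per cell cannot be told apart.

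**Figure D4:**
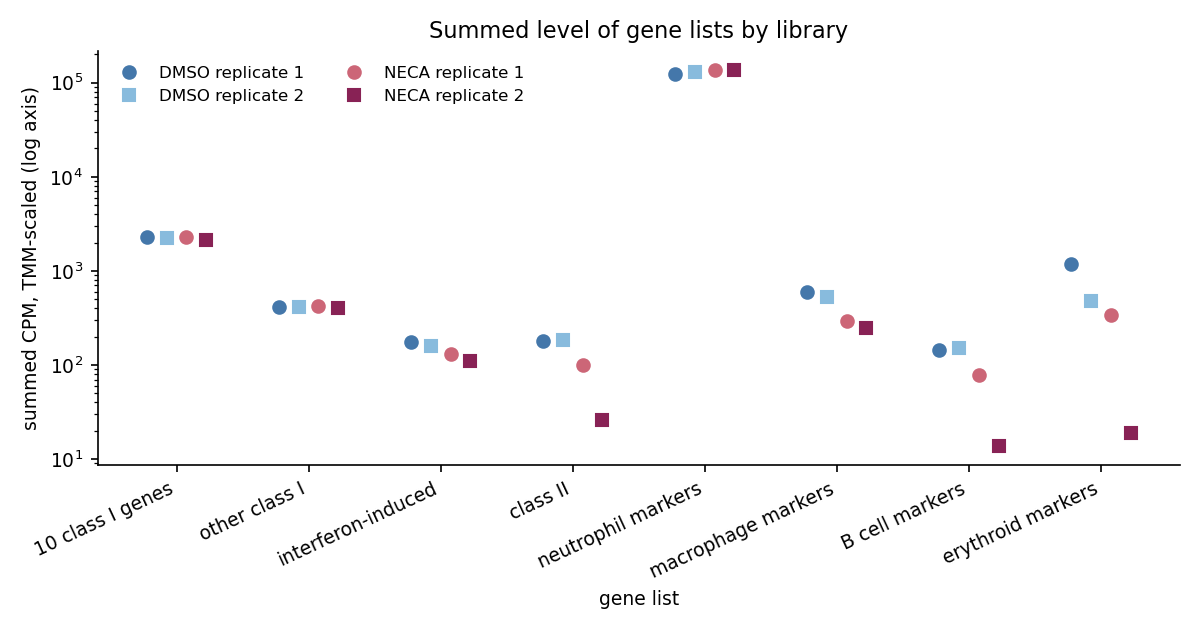
Summed CPM of the genes of 8 lists in each library (log axis). The sum of the 10 class I genes, most of it H2-D1 and B2m, stays between 2139 and 2320 CPM. The class II genes fall to 25.9 CPM and the B cell markers to 13.8 CPM in NECA replicate 2.

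Of 12 tested class I molecules outside the classical pair (18 listed), 0 were higher, 1 was lower and 11 did not pass edgeR's test, with a median log2 fold change of -0.93. Of the 12, 8 had values below 0 and 4 above, and the 4 above had the highest CPM of the list, a scale that takes no account of length: H2-T23 (0.10), H2-T24 (0.05), H2-Q10 (0.27) and H2-T22 (0.04), with adjusted p of 0.199 to 0.932. The list's summed level was nearly flat, at 417 and 411 CPM in the DMSO libraries and 419.6 and 406 CPM in the NECA libraries. The lower one was Fcgrt, the class I-like neonatal Fc receptor that binds IgG and albumin and presents no peptide. It fell from 22.5 ± 5.03 to 7.13 ± 1.49 CPM (log2 fold change -1.65, SE 0.20, adjusted p = 0.00229), with 26.0 and 18.9 CPM in the DMSO libraries and 8.18 and 6.07 CPM in the NECA libraries. Its call held without each of the 4 libraries in turn. Limma on log2(FPKM + 1), which called 1 gene in the whole table, ended it (adjusted p = 0.160), and likewise the calls of Lap3, Irf7 and H2-DMa (adjusted p of 0.160 to 0.210). Not passing were Hfe, a regulator of iron uptake (-0.88, adjusted p = 0.113), H2-Q4 (-0.97, adjusted p = 0.114) and Mr1, which presents vitamin B metabolites to MAIT cells. Mr1 had 25 and 16 counts with DMSO and 3 and 1 counts with NECA (adjusted p = 0.084). Counts of H2-Q4 are uncertain, since 36.4% of its 50-base words occurred in other genes. Those of H2-Q10 are uncertain too, since it held 5.18% of the 50-base words of H2-K1, the most of any other gene. The list had 1 higher and 5 lower genes and a median of -1.32 without NECA replicate 1, and 1 lower gene and a median of -0.53 without NECA replicate 2.

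Of 11 genes for peptide loading and trimming, 0 were higher, 1 was lower and 10 did not pass, around a median of 0.03. Lap3, a cytosolic leucine aminopeptidase that interferon induces, fell from 9.12 ± 0.403 to 3.23 ± 0.176 CPM (log2 fold change -1.49, SE 0.23, adjusted p = 0.00884), a call lost with either DMSO library left out at nearly the same fold (-1.53, adjusted p = 0.0602 without replicate 1, and -1.45, adjusted p = 0.052 without replicate 2). The aminopeptidases Lnpep (0.11, adjusted p = 0.367) and Npepps (0.10, adjusted p = 0.383) and the chaperone calnexin, Canx (-0.13, adjusted p = 0.500), did not pass. Of the 8 constitutive catalytic subunits and proteasome activators 0 were called by edgeR (0 at an unadjusted p under 0.05), with a median of -0.03. Among them the genes of the interferon-inducible PA28 activator, Psme1 and Psme2, stood at -0.07 and -0.19 (adjusted p = 0.726 and 0.405), and Psme4 at 0.07 (adjusted p = 0.760). Counts of Psme2 are uncertain beside its copy Psme2b, with 28.3% of 50-base words in common.

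**Figure D5:**
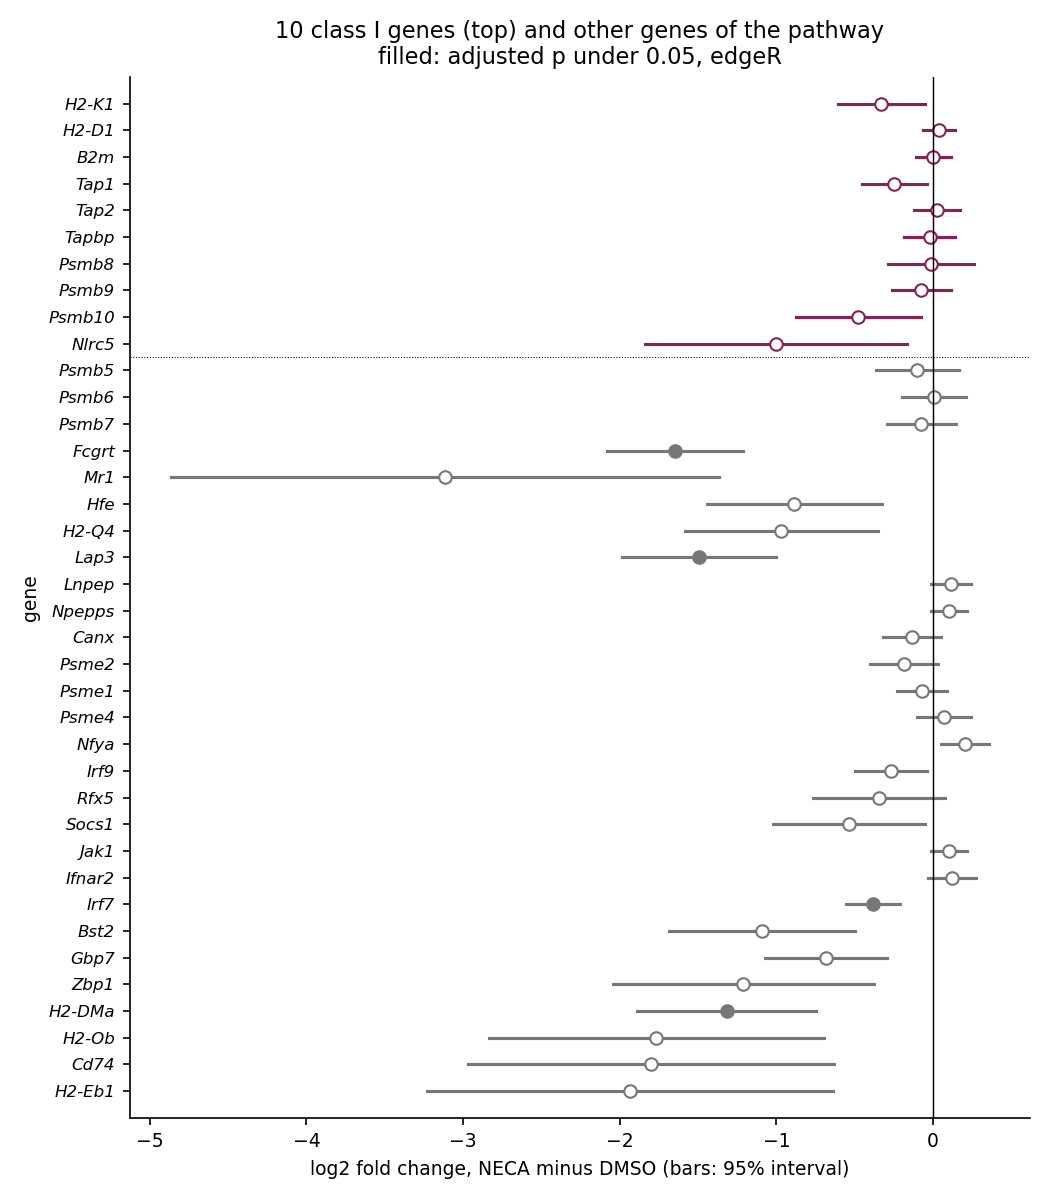
Log2 fold change (NECA minus DMSO) with its 95% interval for the 10 class I genes (top) and 28 other named genes of the pathway; filled points passed edgeR's test. None of the 10 is filled, and Fcgrt, Lap3, Irf7 and H2-DMa are the filled points.

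The factors that act on class I promoters gave 0 calls among 15 tested genes (2 at an unadjusted p under 0.05 by edgeR, 1 in each direction), with a median of 0.03. The NF-Y subunit Nfya stood at 0.20 (adjusted p = 0.177), the interferon signalling factor Irf9 at -0.27 (adjusted p = 0.235) and Rfx5, the large RFX subunit, at -0.35 (adjusted p = 0.426). Irf9 was called by edgeR without NECA replicate 1 (-0.42, on a lone NECA library) and without the filter on low counts (-0.27, adjusted p = 0.0339). Of 8 tested interferon receptor and signalling genes 0 were called (1 at an unadjusted p under 0.05), with a median of 0.05: the JAK inhibitor Socs1 stood at -0.54 (adjusted p = 0.262), the kinase Jak1 at 0.10 (adjusted p = 0.395) and the receptor chain Ifnar2 at 0.12 (adjusted p = 0.463). Ifng and Ifnb1, the interferons themselves, had 0 counts in all 4 libraries.

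Genes that interferon induces had mostly lower values with NECA. Of 18 tested (23 listed), 17 had values below 0, where 6720 of all 13083 genes tested did. The median log2 fold change of the 18 was -0.70, while 1 was called lower and 0 higher by edgeR. Of the 18, 14 were lowest in NECA replicate 2, where some had few or no counts. The called gene was Irf7, a master factor of the type I interferon response, at 59.6 and 60.5 CPM (DMSO libraries) against 47.0 and 45.1 CPM (NECA libraries) (log2 fold change -0.38, SE 0.08, adjusted p = 0.038). The call ended when DMSO replicate 1 (adjusted p = 0.125), DMSO replicate 2 (0.139) or NECA replicate 2 (0.0756) was left out, with folds of -0.39, -0.37 and -0.35. Bst2, which tethers virions, stood at -1.09 (adjusted p = 0.0768), the GTPase Gbp7 at -0.68 (adjusted p = 0.0874) and the nucleic acid sensor Zbp1 at -1.21 (adjusted p = 0.136). Without NECA replicate 1, 8 of the 18 were lower (median -1.10), and without any other single library 0 were (median of -0.83 to -0.49). Without the filter on low counts 9 were. Medians of the macrophage, B cell and erythroid markers were -1.53, -1.82 and -2.002, and the part of such cells in the interferon-induced and class II values was not tested.

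The class II genes, which B cells, dendritic cells and macrophages use to present to CD4+ T cells, gave the comparison with the sister pathway. All 10 tested had values below 0, where 6720 of all 13083 genes tested did. The median of the class II genes was -1.48 against -0.05 for the 10 class I genes, and the difference between these medians was not tested. H2-DMa, a class II peptide-loading factor, was the 1 gene called lower (7.26 and 6.16 CPM in the DMSO libraries, 2.91 and 2.46 CPM in the NECA libraries, log2 fold change -1.32, adjusted p = 0.0326 by edgeR), a call likewise lost with either DMSO library left out (-1.19, adjusted p = 0.182 without replicate 1, and -1.43, adjusted p = 0.0818 without replicate 2). Cd74, the invariant chain, had 82.9 and 87.95 CPM (DMSO libraries) against 43.8 and 4.07 CPM (NECA libraries) (-1.80, adjusted p = 0.120). H2-Eb1 (-1.94, adjusted p = 0.129) and H2-Ob (-1.77, adjusted p = 0.102) had the same order of libraries at the NECA end, with NECA replicate 2 lowest. Without NECA replicate 1, 7 of the 10 were lower (median -3.23), without NECA replicate 2, 6 were (median -0.85), and without either DMSO library 0 were.

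The genes whose pattern over the 4 libraries lay nearest to the mean of the 10 were Helz2, Fgd2, Cd68, Mpeg1 and Fem1b. Each was compared as log2 CPM centred on its own mean, among 5648 genes of at least 20 CPM, and the root mean square distance ran from 0.011 for Helz2 to 0.027 for Fem1b. The mean of the 10 stood at 0.15 and 0.05 in DMSO replicates 1 and 2 and at 0.02 and -0.22 in NECA replicates 1 and 2, so NECA replicate 2 carried most of its shape. The 10 genes weighed equally in this mean, so those that varied most shaped it most. Nlrc5 ran from 1.68 to 5.17 CPM, H2-D1 only from 1049 to 1118 CPM. With 4 libraries many genes lie close to any such profile, and no test was made of it.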

How the data were processed

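RNA of 4 libraries of spleen PMN-MDSC, 2 with NECA and 2 with DMSO, was analysed from one deposited table per library. Per the file headers, the authors gave for each of 54532 genes a read count and an FPKM value. The submitters' processing notes list HISAT, StringTie and edgeR, without versions, and mm10 and GRCm38 as builds. No source used here names the counter, its use of strand or its handling of multiply matching reads. Each deposited FPKM was the count times a gene's own factor and 1 scale per library (largest departure 4.65e-09 over 9004 genes). Per the labels, RNA was amplified as cDNA before fragmentation, so counts are not independent molecules.

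Counts were filtered with filterByExpr (minimum count 10), scaled by TMM and tested with the quasi-likelihood test of edgeR 4.0.16 in R 4.3.3, NECA against DMSO without a block (2 residual degrees of freedom), with Benjamini-Hochberg adjustment over 13083 genes and a threshold of 0.05. SE was taken as the size of the log2 fold change over the root of F, and 95% intervals use the t distribution of the fit's degrees of freedom. Limma 3.58.1 and DESeq2 1.42.0 served as alternatives, as did RLE size factors, library size alone, all genes with a count, a replicate block and leaving out each library. The 10 genes, the lists of 7 pathway groups and 6 marker sets, and the alternatives were chosen with earlier results of these data known. Named are the 10 genes, Psmb5 to Psmb7, every called gene and up to 3 others with the smallest p of each pathway list, the 2 most abundant genes of each marker list (1 of them is not reported here) and the 5 genes nearest in profile; Mmp8, Mmp9, H2-T22, H2-T23, H2-T24, H2-Q10, H2-M3, Gm3375, Psme2b, Ifng, Ifnb1, Cd3e, Klrb1c, Ncr1 and Siglech were named after their values were seen. Of the identifiers 54409 matched the reference names, and 27 symbols turned into dates were restored. Replicates were not copies of each other (chi-square per degree of freedom 6.78 for DMSO and 5.38 for NECA). Upstream sequences are RefSeq's on GRCm38.p6, found for 8 of the 10 genes.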

Additional observations from a re-analysis of the deposited data

How the results depend on the processing

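Counts of called genes over the whole table depended on the setting. Against 46 higher and 128 lower, edgeR gave 21 and 217 with library size alone, 285 and 590 without the filter on low counts and 123 and 298 with the replicate block, DESeq2 gave 143 higher (157 lower), and limma on log2(FPKM + 1) gave 1 and 0. With each library left out in turn the higher genes ran from 8 to 227 and the lower from 45 to 594. Of the 10 class I genes 0 were called, 1 without the filter, 1 with the replicate block and 0 to 2 with a library left out. The differences between replicates 1 and 2 correlated at r = 0.022 between the groups across genes. This gave no sign that the replicate numbers pair the libraries, but 1 correlation over all genes cannot exclude it. With the replicate block H2-K1 was called (-0.33, adjusted p = 0.00669 by edgeR), as were H2-Q4, Gbp7, H2-Ob, Cd74 and H2-Eb1 among the named genes. When a library is left out, the lone library of its group is assumed to vary like the other group. Signs changed for genes near 0. With library size alone they were -0.035 for H2-D1, -0.070 for B2m, -0.046 for Tap2, -0.066 for Psmb6 and -0.0057 for Psme4. With each library left out in turn the log2 fold changes ran from -0.046 to 0.048 for B2m, -0.018 to 0.068 for Tap2, -0.13 to 0.074 for Tapbp, -0.27 to 0.19 for Psmb8, -0.18 to 0.017 for Psmb9, -0.30 to 0.072 for Psmb5 and -0.097 to 0.10 for Psmb6. The log2 ratio of summed neutrophil markers (0.13) was 0.055 with library size alone, and that of erythroid markers (-2.21) was -5.44 when NECA replicate 1 was left out and -1.29 when NECA replicate 2 was. The cause of these shifts was not tested. With 26 to 99 counts for Nlrc5, counting error limits its value.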
